A study of Papio anubis with 25 samples.

Results

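The comparison set 3 parotid libraries of olive baboons (Papio anubis) against all 5 sublingual libraries, from 5 animals in all, and used 8 of the 25 libraries in the series. The parotid libraries were selected on the measured level of BPIFA2, at least 2000 TPM. BPIFA2 is a secreted BPI-fold protein of serous saliva, and the libraries that passed came from baboons 1, 3 and 4. TPM gives a gene's share of its library corrected for transcript length, so the values of each library add up to the same total. BPIFA2 stood at 19382, 5051 and 15809.6 TPM in the chosen libraries, and at 507 and 1108 TPM in the parotid libraries of baboons 2 and 5, which were not chosen. The chosen library nearest to the threshold was that of baboon 3 with 5051 TPM, and the nearest below it was that of baboon 5 with 1108 TPM. The sublingual libraries held 1021, 870, 643, 1598 and 1442 TPM in the order of baboons 1 to 5. The liver and pancreas libraries of the series held BPIFA2 at 562 to 1414 TPM. Because BPIFA2 chose the libraries, its level is given as a description; it entered the fit with the other genes, and no test of it is used.

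The labels name no treatment. Each gland group had 1 library per animal, made from RNA of thin sections of the flash-frozen left gland. The only male was baboon 5, so the chosen parotid libraries were all from females and a difference between the sexes cannot be told apart from the animal. The labels used here give no age. The study asks where amylase genes are expressed in salivary glands, pancreas and liver, and the 5 liver and 5 pancreas libraries serve here as organs that make no saliva.

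The parotid gland is built of serous acini, which release a watery saliva rich in enzymes and proline-rich proteins. The sublingual gland is built mainly of mucous acini with caps of serous cells, and its saliva is rich in mucins. Ducts with keratin-bearing epithelium modify the saliva of both, and the sublingual gland lies directly beneath the stratified epithelium of the floor of the mouth.

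The chosen parotid libraries were checked against acinar genes that their choice did not use. Of 26 tested genes of acinar fluid secretion and its receptors, 9, 15 and 8 were above every liver and pancreas library in those of baboons 1, 3 and 4. The count was 12 in each parotid library that was not chosen, so it did not set the chosen libraries apart. Lactoperoxidase, LPO, which makes an antimicrobial oxidant in saliva, stood at 130, 148 and 100 TPM in baboons 1, 3 and 4, against at most 7.05 TPM in liver and pancreas. AQP5, the water channel of the acinar apical membrane, stood at 107, 48.3 and 53.9 TPM. KRT13, a keratin of stratified oral epithelium, stood at 117, 63.9 and 0.128 TPM, none of them above the 282 TPM reached in liver or pancreas. LPO did not separate the glands on the deposited scale: the sublingual libraries of baboons 1 to 5 held 43.9, 3.45, 161, 6.77 and 178 TPM, so that baboons 3 and 5 exceeded every chosen parotid library. After TMM scaling, which equalises the libraries over the bulk of their genes, the groups did not overlap, with a limma adjusted p of 0.601.

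The defining markers of mucous acini were at or near 0 in several libraries labelled sublingual. MUC5B, a gel-forming mucin of mucous acini, was at 86.7 TPM in baboon 1 and at 0.41, 0.947, 0.145 and 0.0471 TPM in baboons 2 to 5, with up to 0.496 TPM in liver and pancreas. MUC19, another salivary mucin, reached 20.6 TPM in baboon 1 and 95.6 TPM in baboon 5, while baboons 2, 3 and 4 held 0.853, 0.87 and 1.34 TPM. AQP5 was at 40.5, 2.61, 68.9, 3.78 and 226 TPM, and the libraries of baboons 2 and 4 were below the highest liver or pancreas value of 4.52 TPM. KRT13 was at 50365 TPM in baboon 1 and 12518 TPM in baboon 4, against 228, 72.4 and 36.4 TPM in baboons 2, 3 and 5. Of 26 tested serous secretory genes, 14, 1, 18, 11 and 22 were above every liver and pancreas library in the sublingual libraries of baboons 1 to 5, and 13, 17 and 12 in the chosen parotid libraries of baboons 1, 3 and 4. Of 23 tested genes of mucous cells and mucin glycosylation, the corresponding numbers were 20, 0, 15, 8 and 15 in sublingual gland and 3, 8 and 3 in parotid. By these measures the sublingual library of baboon 2 held almost none of the tested secretory genes above the level of liver and pancreas.

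The chosen parotid libraries resembled each other more than they resembled the parotid libraries that were not chosen. Across genes, the Pearson correlation of log2(TPM + 1) was 0.919 to 0.948 among the 3 pairs of chosen parotid libraries. It was 0.723 to 0.788 between chosen and not chosen parotid libraries and 0.621 to 0.881 among the 10 pairs of sublingual libraries; these describe libraries, since genes are not independent replicates. The 10 most abundant genes took 83.2%, 66.2% and 87.7% of the chosen parotid libraries and 23.4% to 43.5% of the sublingual ones. The 13 mitochondrial genes took 1.60% to 14.8% in chosen parotid and 5.45% to 30.4% in sublingual libraries. A library filled by a few transcripts leaves less for the others: the median log2 difference of all 13384 tested genes, parotid minus sublingual, was -0.87 on the deposited scale and -0.09 after TMM scaling. Values are on the deposited scale unless TMM scaling is named.

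On the deposited scale 7 genes passed the test, all higher in the chosen parotid libraries, which is 0.0523% of the genes tested. A call required a limma p under 0.05 after Benjamini-Hochberg adjustment and an absolute log2 difference of at least 1. No gene was called lower in parotid (0%), although 3083 genes had a lower level in parotid at an unadjusted p under 0.05, beside 91 with a higher one. The groups failed to overlap for 76 genes higher in parotid (0.568%) and for 2019 lower (15.1%); after TMM scaling these were 562 (4.2%) and 364 (2.72%). In bulk tissue, fewer cells of a type and less RNA per cell cannot be told apart.

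Among the called genes, PRH2 encodes an acidic proline-rich protein, one of the main proteins of parotid saliva, which binds calcium and coats teeth. Its level was 136723, 105547 and 193793 TPM in the chosen parotid libraries of baboons 1, 3 and 4. The sublingual libraries of baboons 1 to 5 held 6763, 4385, 4561, 8116 and 4499 TPM, all far below the lowest parotid value. The log2 difference was 4.68 with a standard error (SE) of 0.51 and a limma adjusted p of 0.00789, and within baboons 1, 3 and 4 it lay between 4.34 and 4.58. HTN1 encodes histatin 1, a small histidine-rich salivary peptide of enamel and mucosal defence. It was at 2690.1, 9686 and 1738 TPM in parotid and at 53.7, 32.6, 135, 85.1 and 15.7 TPM in sublingual gland, a log2 difference of 6.12 (SE 0.79, adjusted p = 0.0156). PRR27, a proline-rich secreted protein whose gene is next to HTN1 in the gene table, was at 252, 252 and 469 TPM against 11.8, 9.0, 8.84, 21.5 and 28.5 TPM, a log2 difference of 4.35 (SE 0.57, adjusted p = 0.0156). For each of these genes the lowest parotid library was above the highest sublingual library.

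The 3 most abundant unnamed loci among the called genes included the most abundant transcript of the chosen parotid libraries. LOC103881672, which lies between TAS2R42 and ETV6 in the gene table, was at 416757, 363990.0 and 448743 TPM in parotid.
In the sublingual libraries of baboons 1 to 5 the same locus was at 8538, 7238, 11182, 17500 and 16808 TPM, and its log2 difference was 5.15 (SE 0.52, adjusted p = 0.00671). LOC101023064, which is on an unplaced sequence, was at 62498, 24915 and 47553 TPM in parotid against 779, 719, 925, 1383 and 120 TPM, a log2 difference of 6.10 (SE 0.78, adjusted p = 0.0156). LOC116268615, an amylase-interval gene described further on, was at 4505, 2905 and 6282 TPM against 119, 149, 276, 267 and 157 TPM, a log2 difference of 4.56 (SE 0.56, adjusted p = 0.0156). Of these loci, LOC101023064 varied most between sublingual libraries, with baboon 5 lowest.

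TRPV6, an epithelial calcium channel, was the called gene of lowest level. It stood at 36.7, 25.5 and 30.9 TPM in the chosen parotid libraries and at 1.45, 0.738, 2.02, 1.13 and 5.17 TPM in the sublingual libraries. The log2 difference was 3.51 (SE 0.50, adjusted p = 0.0349), and within animals it lay between 3.13 and 3.94. Its sublingual levels were all below the liver and pancreas maximum of 7.79 TPM.

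**Figure D1:**
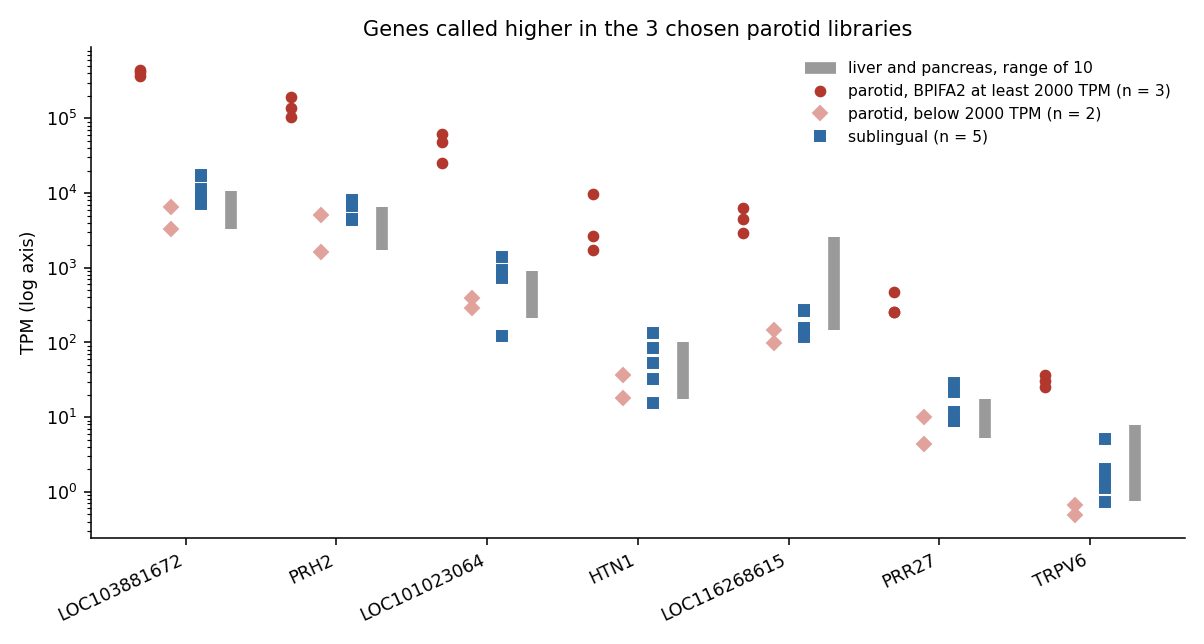
TPM of the 7 called genes on a log axis, 1 point per library, for the 3 chosen parotid libraries, the 2 parotid libraries below 2000 TPM of BPIFA2 and the 5 sublingual libraries, with the range of the 10 liver and pancreas libraries as a grey bar. For every gene the chosen parotid libraries lie above all sublingual libraries, and the parotid libraries that were not chosen lie within or below the sublingual range.

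The calls rest on which parotid libraries were compared. In the parotid libraries of baboons 2 and 5, which BPIFA2 left out, PRH2 was at 1636 and 5122 TPM, HTN1 at 17.9 and 36.4 TPM, PRR27 at 4.33 and 9.96 TPM, and LOC103881672 at 3271 and 6511 TPM. None of the 7 genes was above the highest sublingual library in either of them, nor above the highest liver or pancreas library. The liver and pancreas maximum was 6606 TPM for PRH2, 101 TPM for HTN1, 17.4 TPM for PRR27 and 10619 TPM for LOC103881672. With all 5 parotid libraries, limma called 0 of 14244 genes (0%), with 403 at an unadjusted p under 0.05, of which 41 were higher and 362 lower in parotid. Like BPIFA2, which chose the libraries, the 7 genes were high in the chosen parotid libraries and low in the others, so their p-values describe these 8 libraries and not parotid sections at large. The libraries not chosen held other tissue markers: the adipocyte list took 2.81% of the parotid library of baboon 2, against at most 0.0851% in any other parotid or sublingual library. The lymphocyte list took 0.201% of that of baboon 5, against at most 0.0168% elsewhere among these glands. The part of these markers in the result was not tested.

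Single libraries moved the count of calls. Without the parotid library of baboon 1 no gene was called, with 1265 at an unadjusted p under 0.05, and without that of baboon 4 none was called, with 444. Without that of baboon 3, the least filled by its 10 top genes, 3978 genes were called, 58 higher and 3920 lower. Leaving out the sublingual library of baboon 2 gave 15 calls and leaving out that of baboon 4 gave 4, which no longer held HTN1, PRR27 and TRPV6. Without the sublingual library of baboon 3, PRR27 and TRPV6 were not called, and without that of baboon 1 TRPV6 was not called. With the animal as a fixed replicate block, so that only baboons 1, 3 and 4 carry the contrast, 52 genes were called, 9 higher and 43 lower, and they included all 7.

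For each of the 7 genes, some sublingual libraries did not exceed the highest level in liver and pancreas, organs that make no saliva. PRH2 ranged from 1711 to 6606 TPM in liver and pancreas, and 2 of 5 sublingual libraries exceeded it. HTN1 exceeded its liver and pancreas maximum of 101 TPM in 1 sublingual library, that of baboon 3. LOC103881672 exceeded its maximum of 10619 TPM in 3 sublingual libraries, those of baboons 3, 4 and 5. PRR27 and LOC101023064 exceeded their maxima of 17.4 and 917 TPM in 2 sublingual libraries each. For TRPV6 and LOC116268615 no sublingual library exceeded the maximum, which pancreas set at 7.79 and 2570 TPM. In liver alone their maxima were 1.20 and 186 TPM, which the sublingual level of TRPV6 exceeded in baboons 1, 3 and 5 and that of LOC116268615 in baboons 3 and 4. Every liver and pancreas library held PRH2 at 1711 TPM or more and LOC103881672 at 3278 TPM or more, and the source of that level was not tested.

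**Figure D2:**
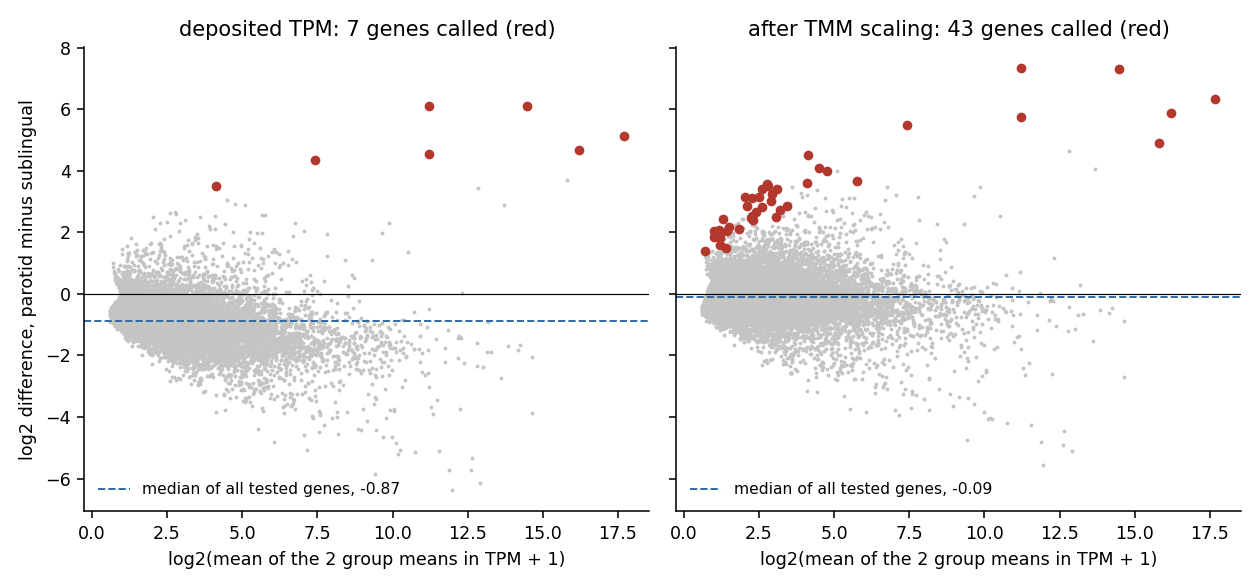
Log2 difference (parotid minus sublingual) of each of the 13384 tested genes against its mean level, on the deposited TPM scale (left) and after TMM scaling (right), with called genes in red and the median of all tested genes as a dashed line. The dashed line moves from -0.87 to -0.09, and 7 genes are called on the left and 43 on the right, all above 0.

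After TMM scaling limma called 43 genes, all higher in parotid (0.321%), among them all 7 of the deposited scale. The TMM-scaled log2 differences of the 7 were larger, from 4.51 for TRPV6 to 7.33 for HTN1, with 5.88 for PRH2 and 6.33 for LOC103881672 and adjusted p from 0.00577 to 0.0180. The others were mostly of low level. SOCS2, an inhibitor of cytokine and growth hormone signalling, was at 28.9, 65.0 and 25.4 TPM in parotid and at 4.33, 3.30, 5.12, 1.60 and 4.08 TPM in sublingual gland. Its log2 difference after TMM scaling was 4.10 (SE 0.34, limma adjusted p = 0.00406), and on the deposited scale 3.05 with an adjusted p of 0.0919. RAB26, a small GTPase of secretory granule maturation in acinar cells, was at 28.3, 78.3 and 32.3 TPM against 2.32, 2.48, 7.98, 2.76 and 12.7 TPM, a TMM-scaled log2 difference of 3.99 (SE 0.51, adjusted p = 0.0145). LOC103884417, an abundant locus between CSN2 and HTN1 in the gene table, was at 123840.0, 48707 and 146610.0 TPM against 8068, 5357, 5149, 13641 and 7084 TPM, with an adjusted p of 0.0398 after TMM scaling and 0.0647 before it. TFAP2B and LMX1B, developmental transcription factors, were low in level, with parotid means of 2.40 and 6.73 TPM and sublingual means of 0.0801 and 0.823 TPM. SLC25A29 and SLC25A48, mitochondrial carriers, had parotid means of 94.9 and 10.7 TPM and sublingual means of 12.5 and 0.977 TPM. Of the genes in this paragraph, those in no list were picked out after their values were seen.

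With the parotid libraries that were not chosen added, few genes separated the glands. All 5 parotid libraries lay above all 5 sublingual libraries for 13 of the 13384 tested genes (0.0971%), and all 5 lay below for 36 (0.269%). Among the 36 were SCGB2A2, SPINK5 and TFF1, named further on, on the deposited scale and none of them called. SOCS2, which was at 21.3 and 12.4 TPM in the parotid libraries of baboons 2 and 5, was one of the 13. MAD2L2, a regulator of DNA translesion synthesis and the mitotic checkpoint, stood at 67.2, 71.5, 67.4, 73.6 and 77.4 TPM in the parotid libraries of baboons 1 to 5, against 23.1, 25.1, 18.7, 16.1 and 43.9 TPM in sublingual gland. The ATP-gated channel gene P2RX4 was at 12.8 to 28.6 TPM in the 5 parotid libraries and at 2.93 to 9.87 TPM in sublingual gland. The syndecan gene SDC3 and the autophagy gene TECPR1 were 2 more, both also called in the chosen libraries after TMM scaling. None of the 13 was called with all 5 parotid libraries, and these genes were picked out after their values were seen, so they are a description only.

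Of the serous secretory genes, 3 of 26 tested were called on the deposited scale, PRH2, HTN1 and PRR27, beside 0.0523% of all genes. The median log2 difference of the 26 was 0.34, against -0.87 over all tested genes, and 1.37 against -0.09 after TMM scaling. The list contains BPIFA2, and its members were chosen with results of these libraries known. It took 12.9% to 21.6% of the chosen parotid libraries, and 0.448% and 1.13% of those of baboons 2 and 5, which were not chosen. A choice of libraries by a serous gene favours a serous list, so its median and its 3 calls describe the chosen libraries only. CA6, the secreted carbonic anhydrase of saliva, was at 1455, 973 and 2181 TPM in parotid and at 210, 173, 394, 263 and 606 TPM in sublingual gland; the groups did not overlap, but the adjusted p was 0.185. Other serous products were higher in a sublingual library than in any parotid one. ZG16B, a lectin-like salivary protein, was at 435, 583 and 357 TPM in parotid and at 5872, 170, 26569.8, 2137 and 217252 TPM in sublingual gland. PIP, the prolactin-induced protein, was at 271, 651 and 519 TPM against 636, 267, 5296, 1153 and 61330.1 TPM. Lysozyme, LYZ, a bacterial cell wall enzyme, was at 729, 1311 and 128 TPM against 1341, 19.6, 617, 549 and 17351 TPM. For these 3 genes the sublingual spread contained the whole parotid range, and limma's adjusted p was 0.207, 0.271 and 0.817.

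No gene for fluid secretion or its receptors, 26 tested, was called on the deposited scale, beside 0.0523% of all genes. The list's median on that scale was -0.11. After TMM scaling 2 of the 26 were called higher, beside 0.321% of all genes, and the list's median was 0.81. Among them was ADRB1, the beta-1 adrenergic receptor, at 3.85, 10.5 and 3.75 TPM in parotid against 0.405, 0.123, 0.27, 0.835 and 1.04 TPM in sublingual gland. Its TMM-scaled adjusted p was 0.00577 by limma. ANO1, the apical calcium-gated chloride channel, was at 18.6, 24.9 and 22.4 TPM against 5.05, 2.05, 4.11, 1.12 and 20.7 TPM, and overlapped through baboon 5. AQP5 and the potassium channel gene KCNN4 were also highest in the sublingual library of baboon 5, at 226 and 87.5 TPM.

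For the machinery behind secretion, calls stand beside 0.0523% of all genes on the deposited scale and 0.321% after TMM scaling. Of 24 tested exocytosis genes RAB26 alone was called, and only after TMM scaling. The granule membrane gene VAMP8 was at 131, 233 and 105 TPM against 513, 25.9, 273, 486 and 732 TPM. None of 40 genes of endoplasmic reticulum translocation and folding was called on either scale, with medians of -0.61 and 0.51. None of 33 salivary and oral transcription factors was called. With so few calls among all genes, lists of this size can hold none by chance, so these zeros do not describe the lists. BHLHA15, which governs the secretory apparatus of serous acinar cells, was at 47.0, 37.2 and 82.3 TPM in parotid and at 7.08, 1.23, 6.75, 2.45 and 38.5 TPM in sublingual gland. SOX10, a factor of acinar and myoepithelial cells, was at 34.5, 37.3 and 29.1 TPM against 7.38, 1.24, 15.2, 1.58 and 56.8 TPM. In both genes the sublingual library of baboon 5 reached the parotid level and those of baboons 2 and 4 were the lowest.

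No duct gene of 21 tested was called, beside 0.0523% of all genes on the deposited scale and 0.321% after TMM scaling. The list's median was -0.38 on the deposited scale and 0.69 after TMM scaling. The highest sublingual library was that of baboon 3 for 8 of the 21, and those of baboons 1, 2, 4 and 5 for 5, 2, 3 and 3. FXYD2, a regulator of the sodium pump, was at 64.2, 1103 and 149 TPM in parotid and at 19.2, 8.26, 3699, 40.7 and 414 TPM in sublingual gland, highest in baboon 3 in both glands. KLK1, tissue kallikrein of striated ducts, was at 266, 2113 and 359 TPM in parotid against 42.8, 35.6, 3040.4, 46.6 and 322 TPM, again highest in baboon 3 in both. ASCL3 and FOXI1, factors of duct progenitors and ionocytes, were at 10.2 and 3.51 TPM in the parotid and 39.9 and 12.2 TPM in the sublingual library of baboon 3, and at most 4.29 TPM in any other library compared.

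**Figure D3:**
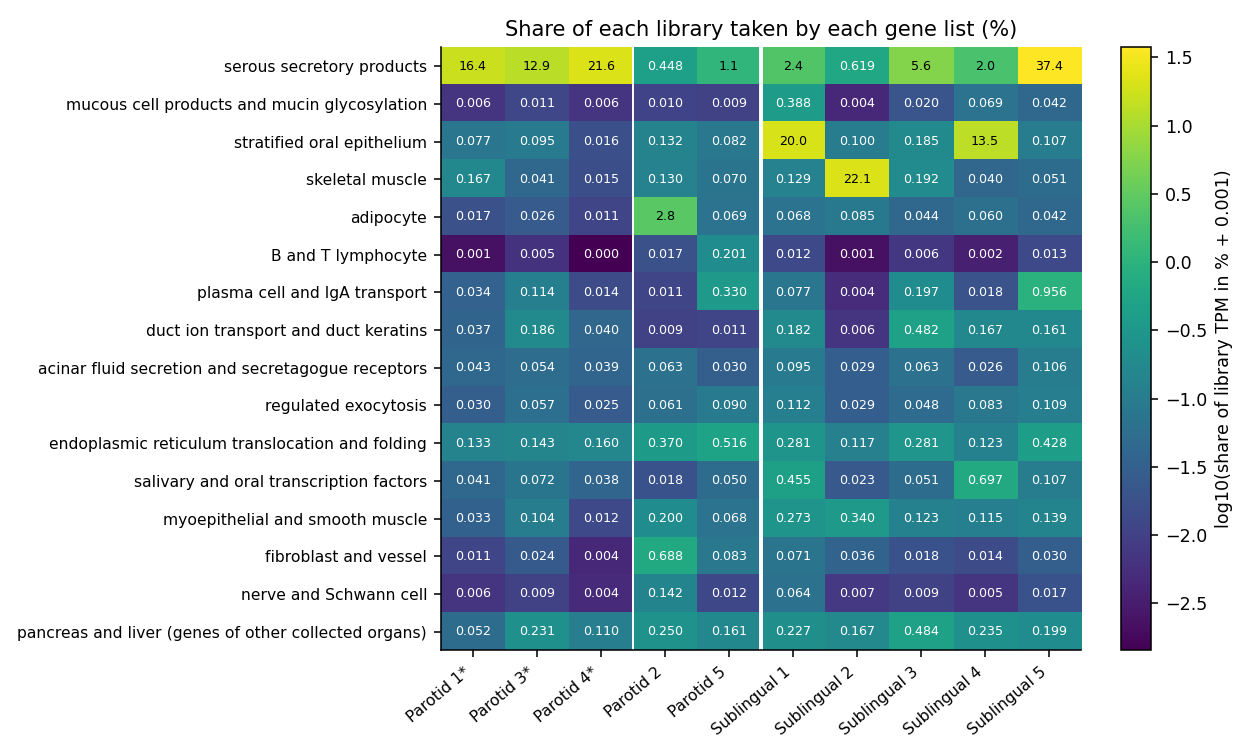
Share of each library's TPM, in percent, taken by each of the 16 gene lists in the 5 parotid libraries (the 3 chosen ones starred) and the 5 sublingual libraries; the colour is the log10 of the share plus 0.001. Stratified epithelium takes 20.04% and 13.5% of the sublingual libraries of baboons 1 and 4, skeletal muscle 22.1% of that of baboon 2 and serous products 37.4% of that of baboon 5.

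No gene was called lower in parotid on either scale (0% of all tested), so the lack of such calls among mucous genes says nothing about them. Of the 23 mucous genes tested, 12 had their highest sublingual value in baboon 1 and 10 in baboon 5. Of all 13384 tested genes, 4842 had it in baboon 1 and 2669 in baboon 5. The list's median log2 difference was -1.29, against -0.87 for all genes, and -0.35 after TMM scaling. BPIFB2, a BPI-fold protein of mucous saliva, was at 1.11, 0.317 and 1.75 TPM in parotid and at 418, 2.33, 22.1, 0.94 and 32.3 TPM in sublingual gland. ST6GALNAC1, which adds sialic acid to mucin sugars, was at 0.395, 0.534 and 0.206 TPM against 43.5, 0.84, 3.82, 6.43 and 48.2 TPM, without overlap on either scale (adjusted p = 0.185). TFF1, a trefoil peptide that travels with mucins, was listed at 0 in all 3 parotid libraries and at 23.3, 0.342, 2.23, 0.481 and 3.92 TPM in sublingual gland. ST3GAL1, another sialyltransferase, was called higher in parotid after TMM scaling with 11.5, 19.6 and 8.07 TPM against 3.13, 2.72, 1.71, 1.51 and 7.82 TPM (adjusted p = 0.0286). It was the only one of the 23 called on that scale, beside 0.321% of all genes. On the deposited scale ST3GAL1 and the transcription factor gene SPDEF had positive log2 differences, of 1.76 and 0.95. After TMM scaling so did CREB3L1, GALNT3, GALNT12, C1GALT1C1 and SLC35A1, at 0.03 to 0.73, none of them called. GALNT12, an enzyme that starts mucin-type sugar chains, was at 6.30, 18.0 and 7.56 TPM in parotid and at 45.3, 1.07, 7.98, 19.7 and 29.4 TPM in sublingual gland.

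The sublingual mean was carried by single libraries for 232 genes. A gene was counted for a sublingual library that held at least 80% of the gene's sum over the 5 sublingual libraries and at least 100 TPM of it. Of the 21287 genes of the table, baboon 1 held 45 (0.211%), baboon 2 held 121 (0.568%), baboon 3 held 18 (0.0846%), baboon 4 held 1 (0.0047%) and baboon 5 held 47 (0.221%). These genes made up 5.03%, 28.8%, 1.40%, 0.0333% and 35.7% of the respective libraries. For the 232 genes a mean over the 5 libraries is thus mostly the value of a single one.

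Of the 47 genes held by baboon 5, 36 had only an LOC identifier. ZG16B (217252 TPM), PIP (61330.1 TPM) and the salivary mucin gene MUC7 (44549.7 TPM) were its 3 most abundant held genes, with 86.2%, 89.3% and 92.0% of the sublingual sum. MUC7 was at 2326, 133, 1014 and 415 TPM in baboons 1 to 4 and at 106, 141 and 77.6 TPM in parotid. The sublingual library of baboon 5 was the highest for 15 of the 26 tested serous genes, but the lowest for HTN1. Among all 13384 tested genes it was the highest for 2669. Under the 80% bound but also highest there was JCHAIN, the joining chain of secretory antibodies, at 8720.0 TPM against 634, 20.3, 1725 and 93.9 TPM. The same held for PIGR, the receptor that carries them across the epithelium, at 294 TPM against 74.9, 1.56, 41.8 and 11.8 TPM. The list of plasma cell and antibody transport genes took 0.956% of this library and 0.0140% to 0.114% of the chosen parotid libraries. Of the 12 tested members, 9 were highest in baboon 5 among the sublingual libraries, beside 2669 of all 13384 tested genes.

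Skeletal muscle genes were highest in baboon 2. Myoglobin, MB, was at 33743 TPM, skeletal actin, ACTA1, at 33485 TPM and sarcolipin, SLN, at 19979 TPM, each with at least 99.0% of the sublingual sum. In the chosen parotid libraries MB was at 232, 14.6 and 25.2 TPM. All 36 tested skeletal muscle genes were highest in this library among the sublingual ones, and the list took 22.1% of it, against at most 0.192% in any other parotid or sublingual library. The same library held the lowest sublingual value of AQP5, LYZ and ZG16B. The part of the muscle content in those values was not tested.

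Genes of stratified epithelium were highest in baboons 1 and 4. KRT4, the partner of KRT13 in oral mucosa, was at 24203, 107, 37.8, 5334 and 16.1 TPM in baboons 1 to 5, and MUC21, a surface mucin of that epithelium, at 2976, 13.6, 14.7, 562 and 1.59 TPM, and both were held by baboon 1. KRT13 and SPRR3 were held by no single library. SPRR3, a cross-linked envelope protein, was at 32569 and 29203 TPM in baboons 1 and 4 and at 85.8 to 149 TPM in the other sublingual libraries, with 0 to 96.0 TPM in chosen parotid. For 36 of 39 tested genes of the list, baboons 1 and 4 were the 2 highest sublingual libraries, 32 being highest in baboon 1 and 7 in baboon 4. Among all 13384 tested genes, baboons 1 and 4 were the 2 highest for 2608. The list took 20.04% and 13.5% of these libraries and at most 0.185% of the other parotid and sublingual libraries. UPK1B, a uroplakin, was the only gene held by baboon 4, at 333 TPM against at most 16.1 TPM in another sublingual library.

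Of the 18 genes held by baboon 3, 12 had only an LOC identifier. The 3 of highest TPM all had a symbol. FXYD2 (3699 TPM) and KLK1 (3040.4 TPM), given above, held 88.5% and 87.2% of the sublingual sum, and FDCSP, a small secreted peptide, was at 2698 TPM against 54.9, 4.10, 7.99 and 330 TPM in baboons 1, 2, 4 and 5.

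**Figure D4:**
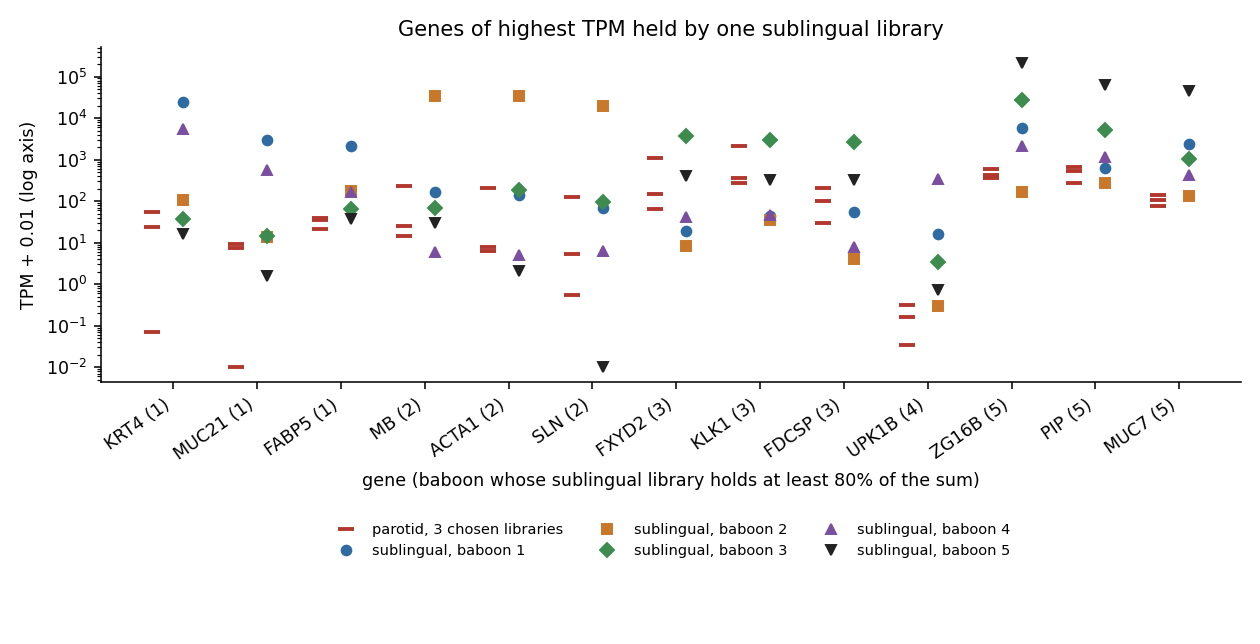
TPM plus 0.01, on a log axis, of the most abundant genes held by each sublingual library (the baboon in brackets), in the 5 sublingual libraries and as red bars in the 3 chosen parotid libraries. MB, ACTA1 and SLN stand at 19979 to 33743 TPM in baboon 2 alone, and ZG16B, PIP and MUC7 are highest in baboon 5 with baboon 3 or baboon 1 next.

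On the sublingual side the genes of lowest log2 difference whose groups did not overlap were mostly from the same libraries, and none was called. S100A8 and S100A9, the subunits of calprotectin in mucosal epithelium and neutrophils, had log2 differences of -6.38 and -6.15 and an adjusted p of 0.185. S100A8 was at 17572, 86.2, 264, 21923 and 59.8 TPM in sublingual gland and at 53.9, 20.8 and 0 TPM in parotid, so the lowest sublingual library was just above the highest parotid one. EMP1, CSTA, SPINK5, ECM1 and KRT78, also known from stratified epithelium, were likewise highest in baboons 1 and 4, with log2 differences of -5.22 to -4.42. CRISP3, a cysteine-rich secretory protein, was at 1572, 8.25, 45.8, 2103 and 3089 TPM against 7.14, 5.63 and 2.75 TPM. After TMM scaling the groups overlapped for each of these 8 genes.

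SLPI and HSBP1L1 were above every chosen parotid library in all 5 sublingual libraries on either scale. SLPI, the secretory leukocyte protease inhibitor of mucosal fluids, was at 290, 13.4, 219, 658 and 204 TPM in sublingual gland and at 5.18, 4.12 and 2.80 TPM in parotid, with 74.1 and 45.7 TPM in the parotid libraries that were not chosen. Its log2 difference was -5.07 (SE 1.00, adjusted p = 0.185), and -3.94 after TMM scaling. HSBP1L1 was at 207, 60.3, 86.8, 262 and 27.2 TPM against 2.06, 5.55 and 1.08 TPM. Its log2 difference was -4.80 (SE 0.76), and its limma adjusted p of 0.0647 was the lowest of the genes named on this side. The parotid libraries that were not chosen held HSBP1L1 at 77.4 and 51.3 TPM, both above the sublingual library of baboon 5. Liver held it at 29.7 to 51.9 TPM. SCGB2A2, a secretoglobin, was at 79.9, 3.98, 99.1, 5.97 and 257 TPM against 0.970, 1.57 and 0.0989 TPM, and CRABP2, a retinoic acid carrier, at 1069.5, 13.9, 15.2, 49.0 and 143 TPM against 4.12, 3.50 and 0.178 TPM. For SCGB2A2 and CRABP2, too, the groups did not overlap on either scale. The unnamed loci of highest sublingual level without overlap were LOC100998924, LOC101012125 and LOC108581861, with parotid means of 1026, 115 and 14.9 TPM and sublingual means of 3587, 1726 and 1614 TPM. None of them was called, and after TMM scaling the groups overlapped for all 3. LOC100998924 was at 2207 to 4761 TPM in the sublingual libraries, whereas LOC101012125 and LOC108581861 rested on the library of baboon 2, at 7387 and 7049 TPM. The parotid libraries that were not chosen held LOC100998924 at 6672 and 5388 TPM, above every sublingual library. Liver held it at 3885 to 9117 TPM.

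Amylase splits starch, and the study was built around it. No gene of the table carries an amylase symbol, so the amylase genes are taken as the 4 genes that code for proteins in the interval from RNPC3 to PRMT6. Their summed level was 4752, 3365 and 6850 TPM in the chosen parotid libraries (4989 ± 1755, SD, n = 3) and 386, 323, 782, 444 and 289 TPM in the sublingual libraries (445 ± 197, SD, n = 5). Every chosen parotid library was above every sublingual one, and the liver sum was 453 ± 125 TPM (SD, n = 5). In pancreas LOC101017419, which is among the 4 genes, was alone at 9141 to 14641 TPM, above every parotid sum. The log2 difference of the sum, parotid minus sublingual, was 3.52. Its two-sided exact permutation p was 0.0179, the smallest that 56 arrangements of 3 and 5 libraries can give. After TMM scaling it was 4.71, with the same p. The parotid libraries of baboons 2 and 5 held 332 and 384 TPM, within the sublingual range, and with all 5 parotid libraries the difference was 2.02 and the exact permutation p was 0.111. Within baboons 1, 3 and 4 the log2 difference was 3.22 ± 0.98 (SD, n = 3), with an exact sign-flip p of 0.25, the smallest that 3 pairs can give.

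The amylase genes did not move together. LOC116268615 made up most of the parotid sum, with the values given above and a maximum of 2570 TPM in liver and pancreas. LOC101018739 was at 203, 337 and 517 TPM in parotid against 113, 71.0, 172, 66.5 and 43.6 TPM in sublingual gland, without overlap and with an adjusted p of 0.185. LOC101017419 was at 44.5, 123 and 51.0 TPM against 154, 103, 333, 110 and 88.6 TPM, and the groups overlapped. LOC101008727 was at 0.323 TPM or less in each of these libraries. Amylase genes are known as close copies of each other; how the quantification divided reads between these 4 was not tested, so the value of any one of them is uncertain.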

How the data were processed

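Salivary gland, pancreas and liver RNA of 5 olive baboons was sequenced as paired reads on an Illumina HiSeq, per the labels' protocols. The deposited values were TPM per gene from kallisto, per the name of the table, and were used as deposited; the kallisto version, its index and the genome build are not given in the sources used here. The submitters' processing notes also name FastQC, MultiQC, cutadapt, HISAT2, SAMtools, featureCounts and DESeq2, with no version or role. Each library summed to between 999999.5 and 1000000.6 TPM. TPM keep no depth, so no counting error is given and precision rests on the spread between animals, each of which gave 1 library per tissue. All 21287 identifiers matched a symbol in the RefSeq gene table of Panubis1.0, which was used for names and neighbouring genes only.

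Libraries were grouped by the labels' tissue and by the BPIFA2 threshold of 2000 TPM. The 13384 genes whose mean reached 1 TPM in either group were fitted on log2(TPM + 1), a scale that understates the change of low genes, with limma 3.58.1 and statmod 1.5.0 in R 4.3.3 (lmFit and eBayes with a trend, tissue as the term). The animal entered as a random replicate block, because same-numbered libraries come from the same animal. The deviations of same-animal parotid and sublingual libraries from their group means correlated at 0.0901, 0.205 and -0.101 across genes, and the fitted consensus correlation was 0. P-values were adjusted by Benjamini-Hochberg over all tested genes. The amylase sum was tested by exact permutation of the tissue labels. Python 3.11.15 with pandas 2.3.3, numpy 2.4.6, scipy 1.17.1 and matplotlib 3.10.9 was used. The model was also run on simulated data in which both groups had the same spread for a gene. It called 27% to 37% of simulated log2 changes of 2 and 77% to 85% of changes of 4, with 5 to 9 false calls. The simulation did not copy the unequal spread of the real groups, so it cannot show how the model handles that.

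Genes named were, among called genes without overlap whose higher group averaged 10 TPM or more, up to 12 of highest and 12 of lowest log2 difference without an LOC identifier, and 3 LOC identifiers on each side by mean. Where no gene was called the call was dropped from the rule, as it was for the sublingual side. Also named were the 3 genes of highest TPM held by each sublingual library, members of the 16 gene lists (392 of 430 symbols in the table), BPIFA2, LPO, KRT13 and the amylase interval genes. The members, lists and rules were chosen with earlier results of these data known. Alternatives varied the replicate block, the libraries fitted, the scaling, the pseudocount (0.1), the filter (none, or 5 TPM), library weights and each library in turn; the TMM and median-of-ratios factors were computed from the TPM. Values of some genes on the lists are not reported here.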

Additional observations from a re-analysis of the deposited data

Results flagged for a closer look

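Among the 27 named genes that entered the fit, the log2(TPM + 1) values of the 5 sublingual libraries were checked for a library standing apart from the other four, by Dixon's criterion (0.71 for 5 values), which picks out about 1 group in 20 by chance. It picked out 2 genes. LOC101023064 was at 120 TPM in the sublingual library of baboon 5, while the other sublingual libraries held 719 to 1383 TPM, so this called gene was lowest in the sublingual library in which the serous list took its highest share. LOC101012125 was at 7387 TPM in the sublingual library of baboon 2, while the others held 223 to 427 TPM. That library also gave the skeletal muscle list 22.1% of its TPM, and the part of the muscle content in this value was not tested.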

How the results depend on the processing

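The number of calls, 7 in the main fit and all higher in parotid, depended on the libraries compared, the filter, the scaling and the model. There were 0 calls with all 5 parotid libraries, and 0 to 3978 when single libraries were left out (0 to 58 higher and 0 to 3920 lower). Without a replicate block 7 genes were called; with the replicate block as a fixed animal term 52 were called, 43 of them lower, and with all 25 libraries in the fit 604 (61 higher, 543 lower). TMM scaling gave 43 and median-of-ratios scaling 41, all higher. A pseudocount of 0.1 gave 8 and a mean of at least 5 TPM gave 10, each with 1 lower, and no filter on low values gave 1, none of the 7. Library weights gave 7219 (84 higher, 7135 lower), but their estimation stopped before converging. With the sublingual libraries of baboons 1, 3 and 5 alone, those with AQP5 above every liver library, 4 genes were called higher, all among the 7, and 3 lower; this alternative was chosen after seeing the data. The cause of these changes was not tested. The amylase sum kept its direction: its log2 difference was 2.02 with all 5 parotid libraries, 3.22 with the replicate block, as within-animal differences, 4.71 under TMM and 4.67 under median-of-ratios scaling, and 3.26 to 3.77 with single libraries left out. Of 494 fold changes of 26 named genes under the alternatives, 2 changed sign: LOC101017419, from -1.08 to 0.113 under TMM and 0.0707 under median-of-ratios scaling, uncalled throughout. Genes held by a single sublingual library numbered 700.0 at 50% of the sum, 137 at 90% and 532 at a minimum of 10 TPM. Depth is unknown.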

Other observations

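Not all abundant unnamed loci of the salivary gene clusters were called on the deposited scale. LOC101011282, between CABS1 and OPRPN in the gene table, was at 52159.5, 9999 and 9800.3 TPM in the chosen parotid libraries of baboons 1, 3 and 4 and at 2761, 1925, 1201, 3282 and 3269.8 TPM in sublingual gland; its log2 difference of 2.89 had an adjusted p of 0.185 in limma. OPRPN, whose product is a small proline-rich salivary peptide, showed the same library on top, with 252, 9.88 and 17.2 TPM in parotid against 3.86 to 11.1 TPM in sublingual gland. LOC101021528, next to the cystatin gene CST9, was at 5229, 4309 and 2956 TPM in parotid and at 3529.9, 2460.0, 1601, 3829.6 and 18488 TPM in sublingual gland, with baboon 5 highest and a log2 difference of 0.03 (adjusted p = 0.976).

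The markers of pancreas and liver did not separate the glands either: CPA1, a pancreatic carboxypeptidase, was at 44.5, 300 and 157 TPM in chosen parotid and at 274, 249, 592, 276 and 137 TPM in sublingual gland, beside up to 55949 TPM in pancreas. Albumin, ALB, was at 96.8, 254 and 133 TPM in chosen parotid and at 170 to 572 TPM in sublingual gland. Both were highest in baboon 3 in either gland. None of the 15 tested genes of this list was called on either scale, beside 0.0523% and 0.321% of all genes.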
